A study of Mus musculus with 2 samples.

Results

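Of the 31053 genes listed in the deposited count matrices, 10 were followed by symbol: the chemokine ligands *Ccl17*, *Ccl22*, *Ccl24*, *Ccl6*, *Ccl9* and *Cxcl16* and the chemokine receptors *Ccr3*, *Ccr4*, *Ccr7* and *Cxcr6*. They were listed by name and not picked by a cutoff on their values here, but earlier results of these data were known when they were chosen. Leukocytes (live CD45+ cells) were sorted on day 4 from melanomas grown in C57BL/6 hosts of 8 weeks, and their transcripts were counted cell by cell in droplets as unique molecular identifiers (UMIs). The tumor cells of both groups were a CRISPR-edited *Braf* V600E melanoma line without *Ptgs1* and *Ptgs2*, the genes of the COX enzymes, according to titles and design text, whereas the genotype label of both samples reads wild type. Control hosts kept their natural killer (NK) cells, and NK cell-depleted hosts had received 200 µg of anti-NK1.1 and 30 µg of anti-asialo GM1 antibody on days 0 and 2. Tumors of a group were pooled into 1 library and parental melanoma cells were spiked into both, so each group is 1 sample, no difference has a replicate check and none was tested. Intervals in brackets are 95% intervals that cover counting error in this pair of libraries and nothing else.

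Chemokines are small secreted proteins that bind receptors on leukocytes and direct where these cells go. CCL17 and CCL22 bind CCR4, a receptor of regulatory and type 2 helper T cells, and are typical products of dendritic cells (DCs). CCL24, or eotaxin-2, binds CCR3, the receptor that defines eosinophil chemotaxis, and is typically made by alternatively activated macrophages. CCL6 and CCL9 are rodent chemokines of myeloid cells that bind CCR1. CXCL16 is made as a membrane protein that the proteases ADAM10 and ADAM17 can shed, and its receptor CXCR6 marks tissue-resident and effector lymphocytes. CCR7 guides naive T cells, B cells and migratory DCs to lymph nodes.

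The members include 2 pairs of neighboring ligand genes, and the promoters of these pairs are shown because each pair was expressed in overlapping cells below. On GRCm38 (the build of the reference annotation, GENCODE M21, and of the mm10 assembly named in the submitters' processing notes), *Ccl22* lies at chr8:94745590-94751699 and *Ccl17* at chr8:94810453-94812036, both on the plus strand and with starts 64.9 kb apart. *Ccl9* lies at chr11:83572919-83578636 and *Ccl6* at chr11:83587882-83593087, both on the minus strand, 14.5 kb apart. The windows below run from 250 bases before to 50 bases after the RefSeq start (GRCm38.p6), 5′ to 3′ on the strand of the gene, as chr8:94810203-94810502 for *Ccl17*, chr8:94745434-94745733 for *Ccl22*, chr11:83593038-83593337 for *Ccl6* and chr11:83578587-83578886 for *Ccl9*. Capitals mark matches on either strand to 5 motifs: TTCNNNGAA (STAT), the wider spacing typical of STAT6 (TTC and GAA with 4 free bases between them), an NF-kB motif (GGG, NN and TTNCC in a row), TGANTCA (AP-1) and AGGAAGT (core of Ets factors).
Ccl17: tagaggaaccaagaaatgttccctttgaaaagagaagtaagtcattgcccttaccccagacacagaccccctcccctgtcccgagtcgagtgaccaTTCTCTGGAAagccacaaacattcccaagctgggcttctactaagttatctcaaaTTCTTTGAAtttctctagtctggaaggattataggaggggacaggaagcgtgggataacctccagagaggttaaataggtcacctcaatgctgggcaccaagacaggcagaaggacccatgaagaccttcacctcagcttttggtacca
Ccl22: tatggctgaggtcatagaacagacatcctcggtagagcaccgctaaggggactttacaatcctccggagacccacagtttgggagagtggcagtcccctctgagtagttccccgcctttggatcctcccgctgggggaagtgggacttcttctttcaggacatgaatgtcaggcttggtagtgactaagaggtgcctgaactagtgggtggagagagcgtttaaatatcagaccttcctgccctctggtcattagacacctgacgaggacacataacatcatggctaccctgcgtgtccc
Ccl6: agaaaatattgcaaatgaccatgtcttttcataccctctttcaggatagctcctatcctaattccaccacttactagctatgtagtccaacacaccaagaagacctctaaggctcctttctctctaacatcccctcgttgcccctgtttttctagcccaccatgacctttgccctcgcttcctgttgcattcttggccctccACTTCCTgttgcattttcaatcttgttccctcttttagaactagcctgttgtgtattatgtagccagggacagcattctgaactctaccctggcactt
Ccl9: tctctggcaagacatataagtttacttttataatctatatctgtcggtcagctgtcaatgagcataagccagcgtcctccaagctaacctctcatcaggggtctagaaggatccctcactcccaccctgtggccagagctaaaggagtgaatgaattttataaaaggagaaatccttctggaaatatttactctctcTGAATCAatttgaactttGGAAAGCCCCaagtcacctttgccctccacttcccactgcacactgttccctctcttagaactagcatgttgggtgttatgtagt

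The *Ccl17* window held 1 match to each STAT motif, which 8.3% and 6.95% of all 32851 RefSeq promoter windows of the same length also held. The *Ccl22* window held no match to these 5 motifs. The *Ccl6* window held 1 Ets core, found in 9.35% of all windows, and the *Ccl9* window held 1 NF-kB match (4.79% of all windows) and 1 AP-1 match (7.81%), which did not overlap. The longest stretch shared by the *Ccl6* and *Ccl9* windows was gccctccacttcc, of 13 bases, and that shared by *Ccl17* and *Ccl22* had 8 bases. RefSeq windows were found for 7 of the 10 members. Those of *Ccr3*, *Ccr4* and *Cxcr6* (all on chromosome 9) are not printed, and *Ccl24*, *Ccr7* and *Cxcl16* are named only.

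With the limits that the study set (between 500 and 15000 UMIs, between 200 and 4000 genes, mitochondrial UMIs up to 10%), there were 5292 control cells with 24810009 UMIs and 4506 NK cell-depleted cells with 23245982 UMIs. Median depths were 4170 and 4893 UMIs per cell, and 5 cell barcodes occurred in both libraries. Cells were clustered anew without the chemokine genes, so the classes ("-like", from marker lists) are rebuilt names. Monocyte/macrophage-like cells were 66.5% of control and 70.8% of NK cell-depleted cells, and NK-like cells were 540 control cells and 1 NK cell-depleted cell. Cluster 13, led by *Cdh1*, *Plet1* and *Ifitm1*, held 2% and 1.51% of cells, and the marker rule named it conventional DC-like. It was set apart without a name after its values were seen, because 97.1% of its cells fell in a monocyte/macrophage sub-cluster of that class. Cluster 18 (led by *Gm5483*, *Hcar2* and *Inhba*) was left unnamed by the marker rule. Within monocyte/macrophage-like cells the summed level of 10 NK markers was 50.6 CPM (UMIs of the genes per 1000000 UMIs of the cells summed) in the control and 1.7 after NK cell depletion, and that of 4 erythroid markers was 5.22 and 134.

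Across all cells, 2 of the 10 members were at least 1.5-fold higher in the control library with an interval that left out a ratio of 1 (*Ccl17* and *Ccr4*), and 2 were lower by the same rule (*Ccl24* and *Ccr3*). Of all 12677 genes that reached 20 UMIs in the sum of the libraries, 7.49% were higher and 3.74% lower by this rule. The median log2 ratio of these genes, control over NK cell-depleted, was 0.01, and that of the 10 members was also 0.01. Within monocyte/macrophage-like cells 9 members could be compared. Of these, 3 were higher by the rule in the control library (*Ccl17*, *Ccl22* and *Cxcl16*) and 1 was lower (*Ccl24*), beside 6.15% and 2.8% of 11878 genes, with a median log2 ratio of 0.43 against -0.01 over all genes. The members thus moved in both directions, and in sums over a library or class fewer cells with a transcript and less RNA per cell cannot be told apart without the shares of cells given below.

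**Figure D1:**
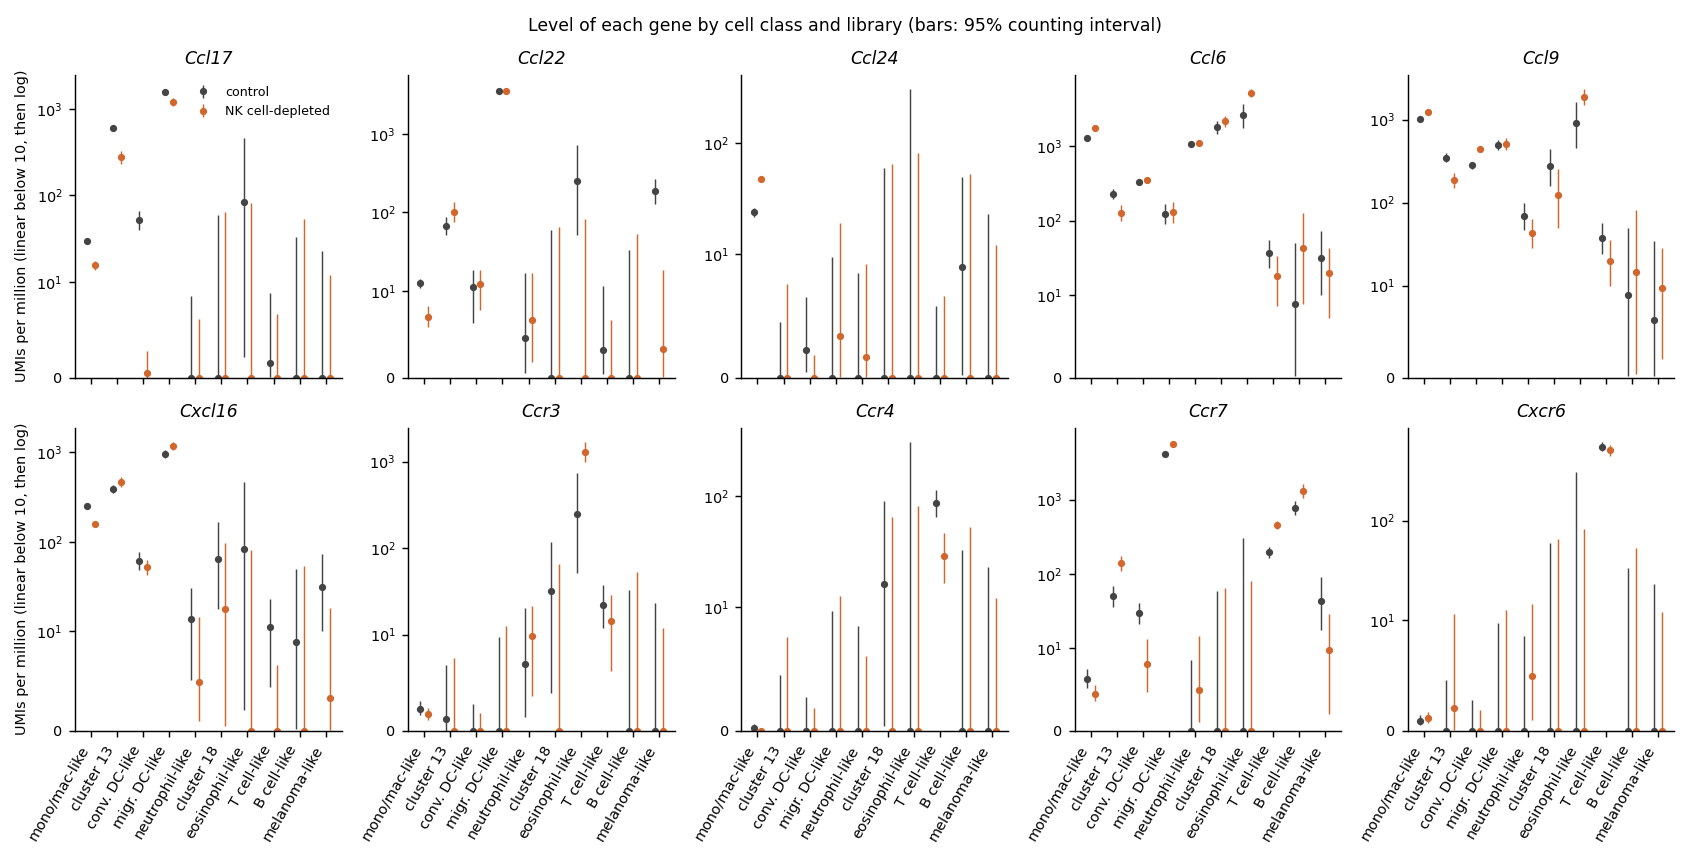
Level of each of the 10 genes (CPM of the class's UMIs, linear up to 10 and logarithmic above) by cell class in the control (gray) and NK cell-depleted (orange) library, with 95% counting intervals; NK-like cells, of which the NK cell-depleted library had 1, are left out. Ccl24 lies almost wholly in monocyte/macrophage-like cells, Ccl22 and Ccr7 peak in migratory DC-like cells, Ccr3 in eosinophil-like cells, and Ccr4 and Cxcr6 in T cell-like cells.

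*Ccl24*, the eosinophil attractant, was a transcript of monocyte/macrophage-like cells, with 465 of 469 UMIs there in the control and 905 of 907 after NK cell depletion. In that class its level was 23.8 CPM (21.7 to 26.1) in the control and 48.0 (44.9 to 51.2) after NK cell depletion, 2.02-fold higher (1.8 to 2.26). It was seen in 6.11% of control and 7.78% of NK cell-depleted cells of the class, or 1.64% and 2.65% when each cell was thinned to 1000 UMIs. As a background, 0 of 288 and 0 of 221 T cell-like cells held a *Ccl24* UMI, at median depths of 2080 and 2327 UMIs against 5060 and 5487 in the macrophage class. The 5 cells with most *Ccl24* held 13.5% and 20% of the class's UMIs.

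The macrophage clusters did not move alike. In the *Retnla*, *Il6* and *Lyz1* cluster (cluster 12) *Ccl24* stood at 46.2 CPM in the control and at 119 after NK cell depletion, the highest level of any cluster there. In the *Gas6*, *Lyve1* and *Cbr2* cluster (cluster 5) it stood at 50.7 and 80.7. The widest ratio was in the *Htra3*, *Spint1* and *Hes1* cluster (cluster 2), with 11.2 and 65.8, where 5 cells held 71.8% and 81.2% of the UMIs. A pair of clusters went the other way, with 15.4 in the control against 6.67 after NK cell depletion in the *Gpnmb*, *Mmp13* and *Spp1* cluster (cluster 0), and 21.7 against 7.2 in the *Slc7a2*, *Dcstamp* and *AA467197* cluster (cluster 10). Of 8 clusters with at least 20 *Ccl24* UMIs, 5 were lower and 2 higher in the control library beyond counting error. With the same makeup of clusters assumed for both libraries the class ratio, control over NK cell-depleted, was 0.574.

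Eosinophil-like cells were 13 of 5292 control cells, a share of 0.246% (0.131 to 0.42), and 68 of 4506 NK cell-depleted cells, a share of 1.51% (1.17 to 1.91). The share was thus 6.14-fold higher after NK cell depletion (3.36 to 12.1). The cluster was led by *Alox15*, *Retnlg* and *Serpinb2*, of which *Retnlg* is also on the neutrophil marker list. The markers *Alox15*, *Siglecf*, *F5* and *Rflnb* were seen in 30.9%, 24.7%, 44.4% and 39.5% of its cells, with medians of 1 and 2 of the 10 markers per cell, and most *Siglecf*, *F5* and *Rflnb* UMIs lay outside it. *Epx* and *Prg2*, the granule protein genes of eosinophils, had 0 UMIs in it. Its cells were shallow, with medians of 697 and 636.5 UMIs, close to the minimum of 500 that the filter sets, so the share counts the eosinophil-like cells above that minimum. At least 3 of the 10 markers were seen in 0 of the 13 control and 15 of the 68 NK cell-depleted cells. Without the cells with the highest doublet scores, 9 control and 68 NK cell-depleted cells were left. Comparisons per eosinophil-like cell thus rest on few control cells with few markers.

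*Ccr3*, the eosinophil receptor, had 71 UMIs in the control and 105 after NK cell depletion, or 2.86 (2.24 to 3.61) and 4.52 (3.69 to 5.47) CPM of all cells, 1.58-fold higher after depletion (1.16 to 2.16). Eosinophil-like cells held 3 of the 71 (4.23%) and 59 of the 105 (56.2%). Per eosinophil-like cell this was 0.231 and 0.868 UMIs, and 2 of 13 (15.4%, 1.92 to 45.4) and 32 of 68 cells (47.1%, 34.8 to 59.6) had a *Ccr3* UMI. With every cell thinned to 500 UMIs the shares were 15.4% and 41.2%. Neutrophil-like cells, a class not known for CCR3, had median depths of 1159 and 1298 UMIs and gave 0.275% and 0.439% at the same depth. The level in eosinophil-like cells was 251 CPM (51.7 to 732) in the control and 1303 (992 to 1681) after NK cell depletion, and the former rests on 3 UMIs. No *Ccl24* UMI was found in eosinophil-like cells of either library, which allows up to 3.

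Outside the eosinophil-like cells *Ccr3* was not higher after depletion, where 68 control and 46 NK cell-depleted UMIs gave a ratio, control over NK cell-depleted, of 1.38 (0.938 to 2.06). Most of these were spread over monocyte/macrophage-like cells, 1.11% and 0.815% of which had a UMI. The second highest class was T cell-like cells, where CD4 and regulatory T-like cells held 13 of the 14 control and 4 of the 8 NK cell-depleted UMIs. With both libraries side by side, the one with more eosinophil-like cells had more *Ccl24* and more *Ccr3*. A pair of libraries allows no correlation. The direction of *Ccr3* over all cells rested on the shallow eosinophil-like cells: with at least 2000 UMIs and at most 5% mitochondrial UMIs per cell, 1 and 0 of these cells were left and the log2 ratio of *Ccr3*, control over NK cell-depleted, turned from -0.66 to 0.48.

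**Figure D2:**
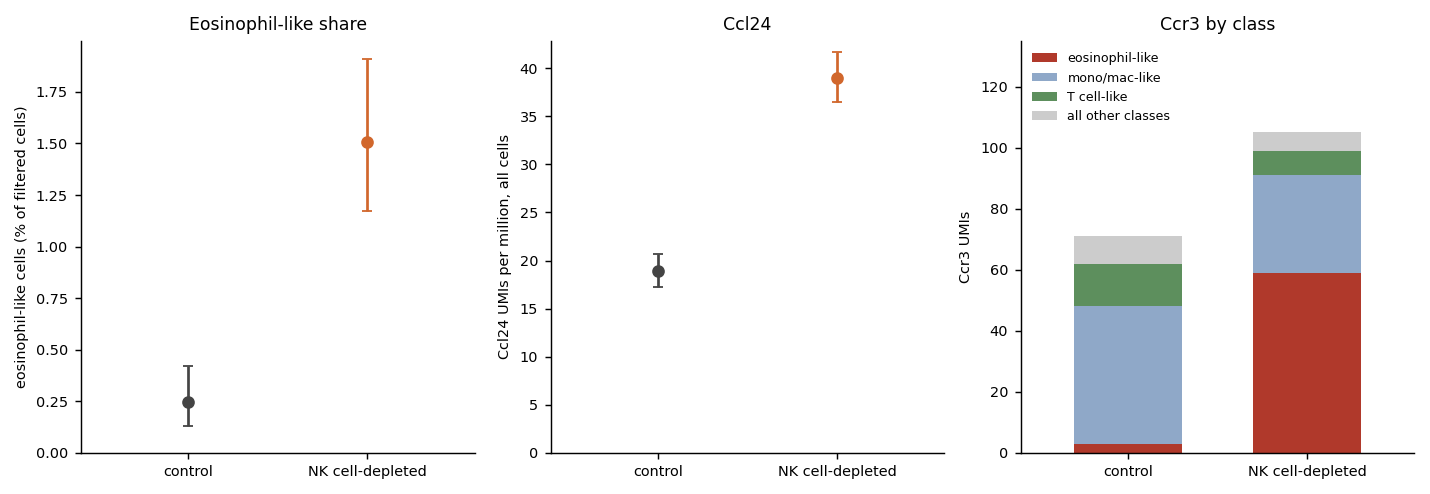
Eosinophil-like cells as a percent of filtered cells (left), Ccl24 in CPM over all cells (middle) and Ccr3 UMIs stacked by cell class (right) in the control and NK cell-depleted library; bars on the points are 95% counting intervals. All are higher after NK cell depletion, and the added Ccr3 is the eosinophil-like part, 3 against 59 UMIs.

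Other ligands of CCR3 were measured in the macrophage class too. *Ccl7* stood at 943 CPM in the control and 949 after NK cell depletion. *Ccl5* stood at 49.7 and 5.99, a log2 ratio of 3.05 (2.77 to 3.35), and moved with the NK markers in this class, whose part in it was not tested. *Ccl11*, eotaxin-1, had 1 and 2 UMIs. The ligands of CCR3 thus did not move in 1 direction.

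*Ccl6* and *Ccl9* had the most UMIs of the members, with 26653 and 20616 UMIs in the control library and 34518 and 24745 after NK cell depletion. In monocyte/macrophage-like cells *Ccl6* stood at 1296 CPM in the control and 1733 after NK cell depletion, 1.34-fold higher (1.32 to 1.36). *Ccl9* stood at 1006 and 1247 in the same cells, 1.24-fold higher (1.22 to 1.26). *Ccl6* was seen in 78.3% and 85.4% of these cells and *Ccl9* in 83.1% and 86.6%, and the shares after thinning to 1000 UMIs were 49.4% and 59% for *Ccl6* and 50.7% and 56.7% for *Ccl9*. T cell-like cells, which are not known to make either, had *Ccl6* in 3.82% and 4.07%. Neither gene reached 1.5-fold.

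Part of that difference went with the clusters that make up the class. Cluster 1 (*Ly6c2*, *Ms4a4c*, *Spon1*) held 298 control and 722 NK cell-depleted cells, and cluster 6 (*Ace*, *Chil3*, *Cd177*) held 261 and 471. With the same cluster weights in both libraries the log2 ratio of *Ccl6*, control over NK cell-depleted, went from -0.42 to -0.16, and that of *Ccl9* from -0.31 to -0.21. Both genes peaked in the same clusters: *Ccl6* in cluster 14 (*Retnla*, *Lyz1*, *Cgnl1*) with 3264 CPM in the control and 4213 after NK cell depletion, and *Ccl9* there with 2051 and 2240.3. Cluster 0 was the lowest for *Ccl6* (589 and 459) and, with cluster 2, was higher in the control library, against the direction of the class.

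Beyond macrophages the pair came apart. Neutrophil-like cells held *Ccl6* at 1074 and 1092 CPM but *Ccl9* at 69.3 and 42.8. Their ratio of *Ccl6* was 0.984 (0.872 to 1.11), so no difference was detectable there at this depth. Eosinophil-like cells held *Ccl6* at 2589 (1759 to 3675) in the control and 5167 (4526 to 5873) after NK cell depletion. There 7 of 13 and 62 of 68 cells had a *Ccl6* UMI, 46.2% and 91.2% when thinned to 500 UMIs, against 31.7% and 34.4% of neutrophil-like cells at that depth. *Ccl9* in eosinophil-like cells was 919 and 1899. Conventional DC-like cells had *Ccl9* at 281 and 437, a ratio of 0.643 (0.568 to 0.727), while *Ccl6* differed by less than its counting error. Within type 2 conventional DC-like cells the *Ccl9* ratio was 0.877 (0.734 to 1.04). In cluster 13 both genes were higher in the control library, *Ccl6* at 227 against 127 and *Ccl9* at 349 against 187. *Ccr1*, their receptor gene, stood at 294 and 250.2 in monocyte/macrophage-like cells, a log2 ratio of 0.23.

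**Figure D3:**
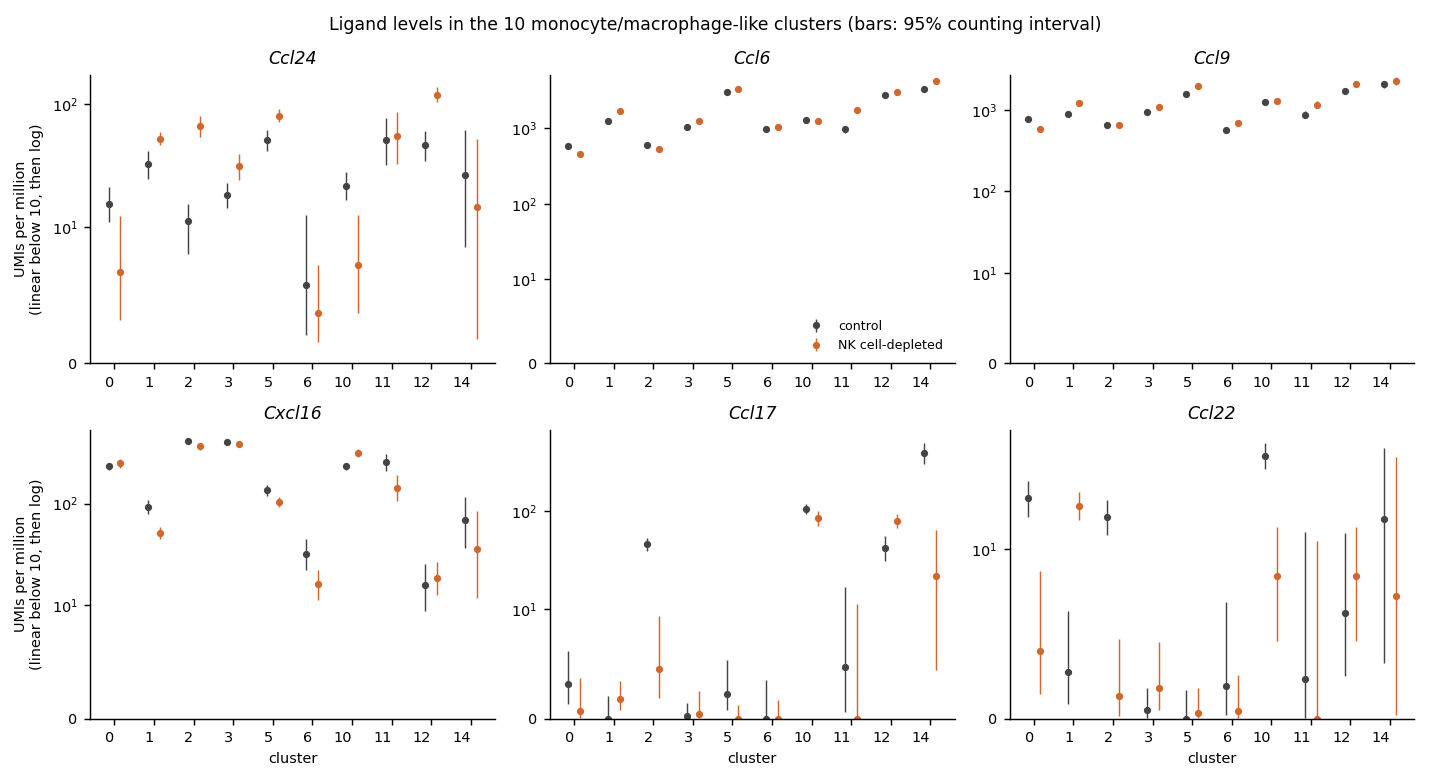
Levels of 6 ligands (CPM, linear up to 10 and logarithmic above) in the 10 monocyte/macrophage-like clusters of the control (gray) and NK cell-depleted (orange) library, with 95% counting intervals. Ccl24 is higher after NK cell depletion in clusters 1, 2, 3, 5 and 12 and lower in clusters 0 and 10, Cxcl16 differs more between clusters than between libraries, and Ccl17 exceeds 20 CPM in clusters 2, 10, 12 and 14.

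*Ccl22* and *Ccr7* were transcripts of migratory DC-like cells (66 control and 52 NK cell-depleted cells, led by *Fscn1*, *Il4i1* and *Tbc1d4*). These cells held 79.2% and 83% of all *Ccl22* UMIs and 77.7% and 76.2% of all *Ccr7* UMIs. *Ccl22* stood there at 3564 CPM in the control and 3498 after NK cell depletion, a ratio of 1.02 (0.939 to 1.11). This near equality was not stable. The log2 ratio went from 0.03 to 0.50 (0.35 to 0.65) with at least 2000 UMIs and at most 5% mitochondrial UMIs per cell. Without the 5 highest cells it was 0.41 (0.23 to 0.59), and without upper limits 0.18 (0.06 to 0.29). Thinned to 2000 UMIs it was 0.10 (-0.13 to 0.33). *Ccl22* was found in 86.4% and 78.8% of the cells, with medians of 6.5 and 4 UMIs per cell and maxima of 185 and 180. A T cell-like background was near 0, with 0.694% and 0% of cells. *Ccr7* stood at 4111 and 5669, a ratio of 0.725 (0.676 to 0.778), with medians of 21 and 29 UMIs per cell.

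*Ccl17* was shared among 3 groups of cells. Migratory DC-like cells held 34.4% of 1731 control and 45.1% of 779 NK cell-depleted UMIs, monocyte/macrophage-like cells 33.3% and 37.5%, and cluster 13 held 28.1% and 17.3%. In migratory DC-like cells its level was 1572 and 1200.1 CPM, a ratio of 1.31 (1.15 to 1.5). It was an uneven transcript: 28 of 66 and 12 of 52 cells had it (25.8% and 16.3% after thinning to 1000 UMIs), and 5 cells held 58.2% and 92.3% of the UMIs. Without those 5 cells the log2 ratio went from 0.39 to 2.78. Nearly every *Ccl17* cell also had *Ccl22*, 27 of the 28 and 12 of the 12, whereas those were 27 of the 57 and 12 of the 41 *Ccl22* cells.

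In cluster 13 *Ccl17* stood at 601 CPM in the control and 277 after NK cell depletion, a ratio of 2.17 (1.79 to 2.65), and was seen in 43.4% and 19.1% of cells, or 21.7% and 14.7% after thinning to 1000 UMIs. *Ccl22* went the other way there, with 67.9 and 102, and *Ccr7* with 50.6 and 139 was found in 5 and 7 cells. In conventional DC-like cells *Ccl17* had 69 control UMIs in 16 of 232 cells and 1 NK cell-depleted UMI in 1 of 304 cells, a ratio of 102 (17.6 to 4070). Type 2 conventional DC-like cells had 32 and 1 of these UMIs, and an unnamed sub-cluster led by *Ifitm1*, *Hspa1b* and *Kcne3*, with *Cdh1* of the leading genes of cluster 13 also high, had 36 and 0. No *Ccl17* was left in conventional DC-like cells of the NK cell-depleted library after thinning, against 3.88% of control cells. *Ccl22* in the same class stood at 11.2 and 12.2 CPM, a ratio of 0.92 (0.449 to 1.83). The *Ccl17* ratio of 102 leaves out cluster 13, which the marker rule had named conventional DC-like before it was set apart. That cluster held 28.1% and 17.3% of all *Ccl17* UMIs, against 3.99% and 0.128% in the class as used. A cluster led by *Cdh1* was counted in the class with cells above the upper limits kept and at resolution 2. There the log2 ratio kept its direction but fell from 6.09 to 1.16 and 2.23. It was 2.24 at resolution 0.5, where the class was a cluster of 714 cells with *Cdh1* also among its leading genes. With the chemokine genes in the clustering it was 3.78.

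**Figure D4:**
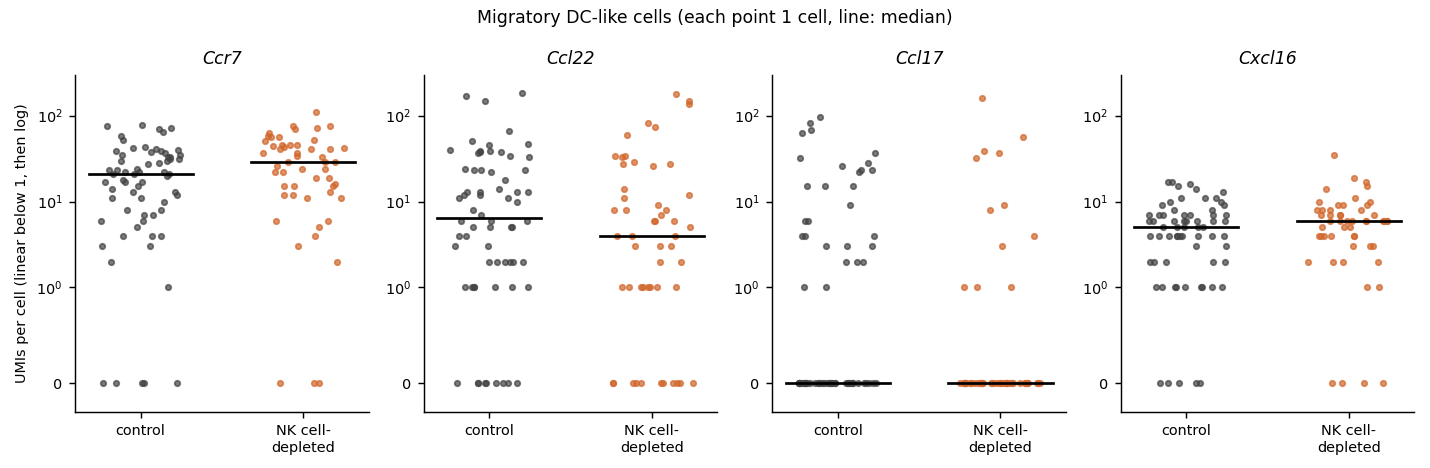
UMIs per migratory DC-like cell (1 point per cell, linear up to 1 and logarithmic above; horizontal lines are medians) for Ccr7, Ccl22, Ccl17 and Cxcl16 in the control (66 cells) and NK cell-depleted (52 cells) library. Ccr7 and Cxcl16 fill nearly all cells, whereas Ccl17 has a median of 0 in both libraries and reaches 97 and 159 UMIs in single cells.

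In monocyte/macrophage-like cells *Ccl17* stood at 29.5 and 15.5 CPM and *Ccl22* at 12.5 and 6.95, ratios of 1.91 (1.65 to 2.2) and 1.8 (1.45 to 2.24). Few cells carried them: 1.71% and 0.878% of cells had *Ccl17*, and the 5 highest cells held 42.5% and 73.3% of its UMIs and 72.1% and 87% of those of *Ccl22*. *Ccl17* was highest in cluster 14, with 385 and 21.7, where 73 control UMIs lay in 4 cells, and in cluster 10, with 104 and 84. Cluster 12 went the other way, with 41.8 and 79.2, where 123 of 132 NK cell-depleted UMIs lay in 1 cell. The 5 highest *Ccl22* cells had medians of 1 and 0 of the 12 migratory DC markers, with ranges of 0 to 2 and 0 to 8. In the NK cell-depleted library 85 of the 131 *Ccl22* UMIs lay in 1 cell, and 1 of these 5 cells was among those with the highest doublet scores. With the chemokine genes kept in the clustering, 0 and 2 of those 5 cells stayed in the class, a cluster of 841 cells led by *Dcstamp*, *AA467197* and *Cdh1* went without a name, and the log2 ratios became -0.10 (-0.46 to 0.26) for *Ccl17* and -0.15 (-0.98 to 0.66) for *Ccl22*. Without upper limits on UMIs and genes *Ccl22* turned to -0.61 (-0.84 to -0.37), so its direction in this class was not stable. Without the cells with the highest doublet scores it rose from 0.84 to 2.26 (1.81 to 2.77). In the melanoma-like class *Ccl22* had 30 control UMIs, 23 of them in 1 cell.

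*Cxcl16*, the ligand of CXCR6, was broadly expressed by myeloid cells. Monocyte/macrophage-like cells held 86.1% of its UMIs in the control and 81.5% after NK cell depletion. Its level there was 252 CPM (245 to 259) and 159 (153 to 165), a ratio of 1.58 (1.51 to 1.66), and it was seen in 48% and 33.9% of cells, or 19.8% and 11.6% after thinning to 1000 UMIs. T cell-like cells gave a background of 2.43% and 0%. Levels ran from 16 in cluster 12 to 416 in cluster 2. Clusters 2 and 3, the highest in *Cxcl16* (416 and 403 in the control, 367 and 386 after NK cell depletion), held 608 and 580 control and 289 and 288 NK cell-depleted cells. Clusters 1 and 6, low in *Cxcl16* (93 and 32.4 in the control, 51.4 and 16.1 after NK cell depletion), held 298 and 261 control and 722 and 471 NK cell-depleted cells. With the same cluster weights the log2 ratio went from 0.66 to 0.09. Within the 9 clusters with at least 20 UMIs it ran from -0.43 in cluster 10 to 1.01 in cluster 6.

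Per UMI the strongest *Cxcl16* class was that of migratory DC-like cells, with 967 CPM in the control and 1173 after NK cell depletion, a ratio of 0.825 (0.71 to 0.958). It was found in 92.4% and 92.3% of them. Cluster 13 followed with 391 and 471. Conventional DC-like cells were low, with 61.5 and 52. Neither shedding protease gene passed 1.5-fold in macrophages. *Adam10* stood at 159 and 166 and *Adam17* at 171 and 179 CPM, with log2 ratios of -0.06 (-0.13 to 0.01) and -0.07 (-0.14 to 0.00).

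*Cxcr6* was a receptor of T cell-like cells, with 350 of 381 control and 280 of 305 NK cell-depleted UMIs. Its level in the class was 552 and 505 CPM, a ratio of 1.09 (0.932 to 1.28). Gamma-delta T-like cells were highest, with 1435 (1212 to 1686) and 1753 (1379 to 2198), and 42 of 42 and 14 of 15 of them had a UMI. ILC2-like cells, innate lymphocytes that share this cluster, followed with 1019 and 1040.2, where 76.5% and 75.6% of cells had a UMI. CD4 and regulatory T-like cells had 338 and 582, a ratio of 0.58 (0.44 to 0.768), and CD8 T-like cells 107 and 28.1. The order of the 4 subsets was the same in both libraries, and the intervals of neighbors in it overlapped in 1 case, gamma-delta T-like and ILC2-like cells of the control library. Monocyte/macrophage-like cells, as a background, had *Cxcr6* in 0.313% and 0.282% of cells.

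*Ccr4*, the receptor of CCL17 and CCL22, had the fewest UMIs of the members, 60 control and 16 NK cell-depleted UMIs. T cell-like cells held 55 of the 60 and 16 of the 16. In that class its level was 86.8 (65.4 to 113) and 28.9 CPM (16.5 to 46.9), a ratio of 3.01 (1.7 to 5.62). With at least 2000 UMIs and at most 5% mitochondrial UMIs per cell the call was lost, with log2 ratios of 0.46 (-0.70 to 1.77) in the class, from 1.56, and 0.74 (-0.39 to 2.03) over all cells, from 1.78. CD4 and regulatory T-like cells held 42 and 12 of these UMIs, and the subset counted 157 control and 53 NK cell-depleted cells. Within the subset the ratio was 1.6 (0.824 to 3.33) and the shares of cells with a UMI were 17.2% and 18.9%, so a difference per cell was not detectable at this depth. Macrophages gave a background of 4 and 0 UMIs.

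*Ccr7* in lymphocytes lay mostly in the CD8 T-like sub-cluster and in B cell-like cells. The former took its name from a list of *Cd8a*, *Cd8b1*, *Nsg2* and *Lef1*. Of these, 3 were among its first 50 genes and 0 among its first 10. Naive CD4 T cells had no list of their own, so they were not told apart from this sub-cluster. CD8 T-like cells, whose sub-cluster was led by *Actn1*, *Gm14085* and *Igfbp4*, had 990.0 and 943 CPM, a ratio of 1.05 (0.824 to 1.33), and were 55 control and 112 NK cell-depleted cells. The T cell-like class as a whole had 194 and 458, a ratio of 0.424 (0.339 to 0.528), while the number of CD8 T-like cells was 2.39-fold higher as a share of the NK cell-depleted library. With at least 2000 UMIs and at most 5% mitochondrial UMIs per cell the log2 ratio of the class turned from -1.24 to 1.63 (0.66 to 2.84). B cell-like cells had 772 and 1314, a ratio of 0.587 (0.432 to 0.798), in 69.6% and 81.1% of cells. NK-like cells of the control library gave a background of 2.04% of cells, against 61.8% and 71.4% of CD8 T-like cells. *Ccl19*, a ligand of CCR7, had 0 UMIs in monocyte/macrophage-like cells of both libraries.

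**Figure D5:**
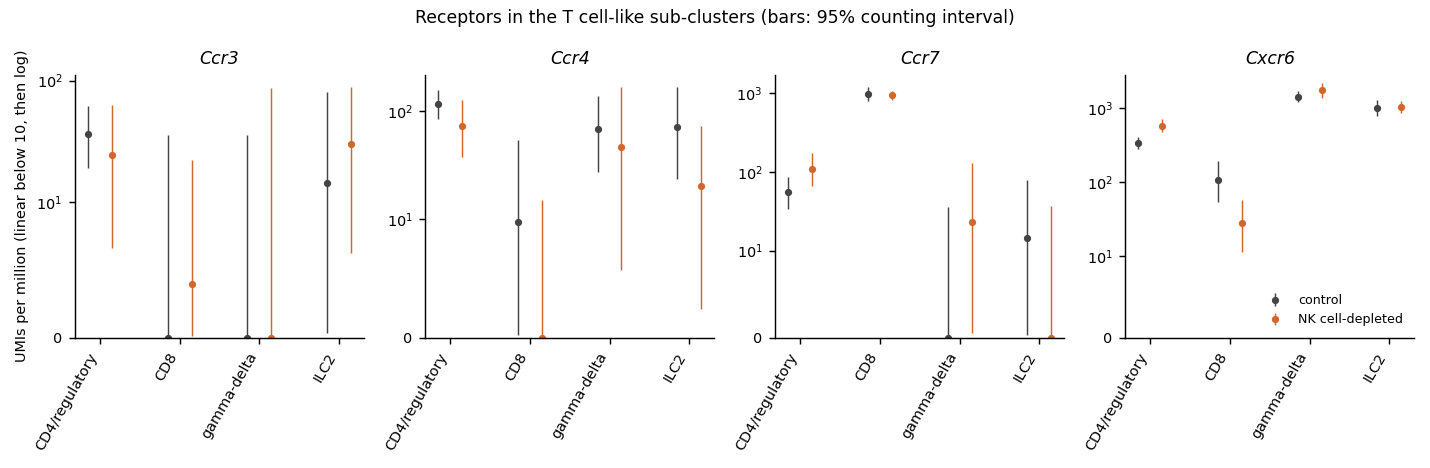
Levels of Ccr3, Ccr4, Ccr7 and Cxcr6 (CPM, linear up to 10 and logarithmic above) in the 4 T cell-like sub-clusters of the control (gray) and NK cell-depleted (orange) library, with 95% counting intervals. Ccr7 is high in CD8 T-like cells and Cxcr6 in gamma-delta T-like and ILC2-like cells, with both libraries close to each other, while Ccr3 and Ccr4 rest on few UMIs.

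Genes whose levels were most like those of a member were taken over 38 sums of cluster by library with at least 20 cells, which share libraries and cell classes, as the 3 highest Pearson correlations of log2(CPM + 10) among 9522 genes. *Ccl22* was nearest to *Il12b*, *Cacnb3* and *Adam23* (r = 0.901, 0.890 and 0.869), and *Ccr7* to *Foxp4*, *Ly75* and *Mllt6* (0.892, 0.883 and 0.843). *Ccl17* was nearest to *Vdr*, *Nectin1* and *Tspan33* (0.835, 0.827 and 0.812), and *Ccl24* to *Serpinb8*, *Steap3* and *Trpv4* (0.867, 0.848 and 0.842). *Ccl6* and *Ccl9* each had other nearest genes, *Gda*, *Alox5ap* and *Cd300ld* (0.912, 0.894 and 0.891) and *Gpx1*, *Sdc3* and *Psap* (0.912, 0.905 and 0.895). *Cxcl16* was nearest to *Fabp5*, *Epb41l2* and *Espl1* (0.848, 0.821 and 0.814), and *Cxcr6* to the T cell gene *Cd3e*, *Bcl11b* and *Camk4* (0.993, 0.990 and 0.989). *Ccr3* and *Ccr4* had under 200 UMIs and were not compared this way. Between members r was 0.836 for *Ccl6* with *Ccl9*, 0.775 for *Ccl17* with *Ccl22* and 0.636 for *Ccl22* with *Ccr7*.

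The wider chemokine system in monocyte/macrophage-like cells was read from lists of other ligands and receptors. Of 19 other ligands with at least 20 UMIs, 11 were higher in the control library and 1, *Cxcl1*, was lower, with a median log2 ratio of 0.86 beside -0.01 over all genes tested. By the same rule 6.15% of all 11878 genes tested in this class were higher and 2.8% lower. These shares are the background of the receptor, type 2 and alternative activation counts below too. *Ppbp* and *Cxcl9*, a platelet chemokine and a ligand of CXCR3, had log2 ratios of 1.91 each, and *Ccl8*, a ligand of CCR8 in the mouse, stood at 191 and 56.7 CPM, a log2 ratio of 1.75 (1.65 to 1.85). *Xcl1*, a product of NK cells, had 32 control UMIs and 0 after NK cell depletion, at least 10.3-fold higher against a floor of 3 UMIs, and moved with the NK markers in this class, whose part in it was not tested. Of 10 other receptors 1, *Ccr9*, was higher (17 and 6 UMIs) and 0 were lower, with a median log2 ratio of -0.00091.

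Of 7 type 2 immunity genes in these cells, *Il33* was higher in the control library (19 and 5 UMIs) and *Tslp* (30 and 57 UMIs) and *Irf4*, a transcription factor of alternative activation, were lower, the last at 29.8 and 48.6 CPM. Of 10 genes of alternatively activated macrophages 3 were higher and 3 lower in the control library, with a median log2 ratio of -0.18. *Arg1*, arginase 1, stood at 1103 CPM in the control and 567 after NK cell depletion and *Pdcd1lg2*, which encodes PD-L2, at 3.69 and 1.22. *Chil3*, a chitinase-like protein gene, stood at 116 and 402 and *Lyve1* at 12 and 25.7. *Mgl2* also was higher and *Cd163* lower. The genes of this list, to which *Ccl24* is often counted, thus did not move in 1 direction.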

How the data were processed

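Leukocytes of day-4 melanomas were profiled with 10x Genomics droplets. The authors aligned and counted with Cell Ranger (3.0.2 in the file headers; build mm10, per the submitters' processing notes) and deposited UMI counts per gene and called cell, which were used as deposited (6115 control and 5536 NK cell-depleted cells). A deposited table of normalized values was not used. The 10 genes, the gene lists and the comparisons were chosen with earlier results of these data known, and some marker lists (eosinophil, DC, T cell subset and melanoma) draw on the study's cluster markers from the same samples.

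Cells were kept from 500 up to 15000 UMIs, from 200 up to 4000 genes and up to 10% mitochondrial UMIs, the study's limits (9798 of 11651). They were clustered with scanpy 1.11.5 and leidenalg 0.10.2 (2000 variable genes without chemokine genes, 15 components, 20 neighbours, resolution 1), which gave 20 clusters named from markers. Cluster 13 was set apart after its values were seen. A cell barcode in both libraries was counted in each. Scrublet called 0 and 3 cells, below 0.5%, so it did not work here, and doublets were kept. Counts were summed per class and library (CPM, per 1000000 UMIs of the class). Exact Poisson, binomial and ratio intervals at 95% cover counting error. Log2 ratios add 0.5 UMI. A count of 0 allows up to 3. Groups of 1 library allow no test, and no gene was called changed beyond a rule of size (1.5-fold, at least 20 UMIs and an interval without 1). For shares of cells, cells were thinned to 1000 UMIs (500 for eosinophils), leaving out shallower cells. The genes named beside the members were the up to 4 past 1.5-fold with the largest ratios per list, genes paired with a member by binding or shedding, the 3 most like each member and the 3 leading genes of a cluster. Other cell filters, resolutions, depths, weightings and clusterings were tried.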

Additional observations from a re-analysis of the deposited data

Results flagged for a closer look

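The direction of 5 genes was opposite in 2 classes of cells, beyond counting error in each, and the difference between the classes was not tested in any of them. As log2 ratios of control over NK cell-depleted, *Ccl6* was 0.83 in cluster 13 and -0.42 in monocyte/macrophage-like cells, and *Ccl9* was 0.90 and -0.31 in the same classes. *Ccl22* was 0.84 in monocyte/macrophage-like cells and -0.60 in cluster 13. *Cxcl16* was 0.66 in monocyte/macrophage-like and -0.28 in migratory DC-like cells, and *Ccr7* was 0.50 and -0.46 in these. With the same cluster weights in both libraries *Cxcl16* was 0.09 in monocyte/macrophage-like cells. *Ccr7* had 123 and 84 UMIs in that class, and 5 cells held 39.8% and 54.8% of them. In each library 2 of those 5 cells were among those with the highest doublet scores. For *Ccl22* and *Ccr7* the opposite direction did not hold in every alternative: in monocyte/macrophage-like cells *Ccl22* was -0.61 and *Ccr7* -0.077 without upper limits on UMIs and genes, and *Ccl22* was -0.15 with chemokine genes kept in the clustering. In migratory DC-like cells *Cxcl16* stayed below 0, but not always beyond counting error. It was -0.17 (-0.42 to 0.07) with at least 2000 UMIs and at most 5% mitochondrial UMIs. Thinned to 2000 UMIs it was -0.08 (-0.47 to 0.32), and without the 5 highest cells -0.18 (-0.43 to 0.07).

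Cells above the upper limits on UMIs or genes (212 control and 353 NK cell-depleted cells, of which 118 and 245 were melanoma-like) were outside the comparisons of the members. There *Ccl24* was 4.40-fold higher in the NK cell-depleted library (2.71 to 7.53; 19 and 136 UMIs), *Ccl6* 1.18-fold (1.13 to 1.24) and *Ccl9* 1.12-fold (1.06 to 1.18), above the level of the control library in data that were left out. *Ccl17*, *Cxcl16* and *Ccr7* were lower there after depletion, with ratios of NK cell-depleted over control of 0.447 (0.381 to 0.524), 0.482 (0.4 to 0.58) and 0.459 (0.328 to 0.64), and for *Ccr7* this was opposite to its direction over all filtered cells.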

How the results depend on the processing

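No paired analysis was possible because each group is 1 library. All values are log2 ratios, control over NK cell-depleted, unless said otherwise. Of the recomputed values for members and eosinophil-like cells over all cells and for counts of genes, 74 kept close to the reported value, 27 moved and 5 turned, and of the other values 270, 73 and 5 did so. *Ccl24* over all cells stayed below 0 in every alternative run. Leaving out the cells with the highest doublet score was chosen after seeing the data. At resolution 0.5 no eosinophil-like class existed (0 cells). The causes of the changes below were not tested.

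With at least 2000 UMIs and at most 5% mitochondrial UMIs, over all cells, *Ccr3* turned from -0.66 to 0.48, *Cxcr6* from 0.23 to -0.50 and the eosinophil-like share from -2.58 to 1.24 (1 and 0 cells), T cell-like *Ccr7* turned to 1.63, and *Ccl6* became -0.43, *Ccl9* -0.33, *Ccl17* 1.64, *Ccl22* 0.67, *Ccr4* 0.74 and *Ccr7* -0.0058. Thinned to 2000 UMIs, *Ccr3* turned to 0.34 and *Cxcr6* to -0.049, with *Ccl6* at -0.44 and *Ccr7* at -0.41. Without upper limits *Ccl6* was -0.34, *Ccl9* -0.23, *Cxcl16* 0.72 and *Ccr7* -0.0017, and in monocyte/macrophage-like cells *Ccl22* turned to -0.61 and *Ccr7* to -0.077. With chemokine genes kept in the clustering *Ccl17* and *Ccl22* in that class turned to -0.10 and -0.15. Without NK-like and melanoma-like cells *Ccl6* was -0.40, *Ccl9* -0.29 and *Cxcl16* 0.61. As a mean of each cell's level *Ccl6* was -0.57, *Ccl9* -0.39, *Ccr3* -2.12, *Ccr7* -0.43 and *Cxcr6* 0.50. Without the 5 highest cells *Ccl17* was 1.82 and *Ccl22* 0.76, and without the highest doublet scores *Ccl22* was 0.58. Taking cells with at least 3 eosinophil markers, the share was -3.78. With at least 100 UMIs, 625 genes were past 1.5-fold higher and 299 lower over all cells (950 and 474 with 20), and 418 higher in monocyte/macrophage-like cells (731).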
